A study of Arabidopsis thaliana with 30 samples.

Results

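SMALL AUXIN UP RNA (SAUR) genes are a large plant family of short transcripts, many of which are made within minutes of exposure to the growth hormone auxin and are short-lived. SAUR proteins inhibit phosphatases of the PP2C clade D, which otherwise switch off proton pumps of the plasma membrane. Pumps that stay active acidify the cell wall and let the cell expand, and several SAUR genes promote elongation of the hypocotyl, petiole or stamen filament. The list of gene identifiers used here was drawn up with earlier results of these data known. The 32 SAUR genes described were chosen by it out of 68575 identifiers in the table, with no threshold on a measured value. They comprise 6 groups of genomic neighbours and a pair of single loci. The neighbours are SAUR1 to SAUR5 (the SAUR1 array), SAUR6, SAUR7 and SAUR12 (the SAUR6 array), SAUR13 to SAUR16 (the SAUR14 array), and SAUR19, SAUR20, AT5G18030 and SAUR22 to SAUR24 (the SAUR19 array). The other 2 are SAUR26 to SAUR29 (the SAUR26 array) and SAUR61 to SAUR66, SAUR68 and AT1G29490 (the SAUR61 array). SAUR9 and SAUR10 stand alone. The identifiers run AT4G34770, AT4G34780, AT4G34790, AT4G34800 and AT4G34810 for SAUR1 to SAUR5, AT2G21210 for SAUR6, AT2G21200 for SAUR7 and AT2G21220 for SAUR12. SAUR13 to SAUR16 are AT4G38825, AT4G38840, AT4G38850 and AT4G38860, and SAUR19, SAUR20 and SAUR22 to SAUR24 are AT5G18010, AT5G18020, AT5G18050, AT5G18060 and AT5G18080. SAUR26 to SAUR29 are AT3G03850, AT3G03840, AT3G03830 and AT3G03820, and SAUR61 to SAUR66 and SAUR68 are AT1G29420, AT1G29430, AT1G29440, AT1G29450, AT1G29460, AT1G29500 and AT1G29510. SAUR9 is AT4G36110 and SAUR10 is AT2G18010. All 32 were described as SAUR family genes in the RefSeq gene table.

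RNA sequencing was done on whole Arabidopsis thaliana seedlings of the mutant Δlinda, which lacks a long non-coding RNA gene, and of its wild type Col-0, after DNA damage. Seedlings were 14 days old and grown on agar plates with 10 h of light per day. The groups were Zeocin Δlinda (4 libraries) and Zeocin Col-0 (3), held for 3 h in liquid medium with 80 µg/ml of Zeocin, an agent that breaks DNA strands, and mock Δlinda (3) and mock Col-0 (4) in liquid medium without it. UV-C Δlinda (4) and UV-C Col-0 (4) were irradiated with 2 kJ of short-wave ultraviolet light and harvested 3 h later. Normal light Δlinda (4) and normal light Col-0 (4) were left unirradiated. Their titles give no time, while those of the other groups give 3 h. The design text states 4 samples in every group, and the treatment text reads as if the mock medium held Zeocin, against the sample titles, which were followed. Nothing in the labels says that the replicates came from separate cultures or how many seedlings went into a library, so p-values measure only the spread between these samples.

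Libraries held 13561665 to 16035490 estimated counts, except normal light Δlinda replicate 1, which held 8282183. Mock Col-0 replicate 1 carried a genotype label of the mutant against its title, and was grouped by its title. Both doubted libraries were kept, and results were repeated without them. Without them 25 SAUR genes were called for UV-C in Δlinda, and 21 in Δlinda and 23 in Col-0 for mock against normal light, beside 25, 22 and 23 with them. The whole-seedling label held unevenly. In normal light, 4 of 10 root marker genes (PLT1, PLT2, EXPA7 and RHD6) had 0 counts in every library of either genotype, while no root marker was at 0 throughout any mock or Zeocin group. Levels below are in CPM (counts-per-million), the count of a gene relative to the TMM-scaled library total, as mean ± SD, and compare a gene with itself across samples. In whole seedlings, fewer cells of a type and less RNA per cell cannot be told apart.

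All 6 SAUR arrays were lower 3 h after UV-C than in normal light in both genotypes. The 32 genes together summed to 17.2 ± 2.04 CPM in UV-C Δlinda, against 372 ± 23.5 CPM in normal light Δlinda (SD, n = 4 each), which is 4.62% of the unirradiated level. They summed to 16.2 ± 1.88 CPM in UV-C Col-0, against 391 ± 48.4 CPM in normal light Col-0 (SD, n = 4 each), or 4.14%. In each genotype the same 24 of 28 tested SAUR genes fell, and in all 24 the UV-C libraries lay below every normal light library. The share of all genes separated in this way is not given here, so that separation is not read as particular to SAUR genes. A gene could pass the filter on low counts through its normal light libraries alone, and a fall was then nearly its only possible call. SAUR10 came near this, with 46 counts in normal light, 22 in mock and 5 in UV-C Δlinda, and 45, 10 and 0 in Col-0. SAUR22, SAUR28 and SAUR61 were also low outside normal light, with 0 counts in 5, 6 and 4 of the 8 UV-C libraries. They had 0 counts in 2, 1 and 1 of the 7 mock libraries, and in 0 of the 8 normal light libraries. Among all 21024 genes tested, 33.3% fell and 35.3% rose in Δlinda, and 33.9% fell and 35% rose in Col-0 (edgeR quasi-likelihood test, Benjamini-Hochberg adjusted p under 0.05). The median log2 change of the tested SAUR genes was -4.94 in Δlinda and -4.57 in Col-0, beside 0.03 and 0.01 over all genes tested. With the genes that had 0 UV-C counts set to their bounds, those medians were -4.74 and -4.42. The leaf mesophyll markers moved in the same direction: 7 of 7 tested fell in either genotype, with summed levels of 28400 to 44400 CPM in UV-C Δlinda against 63800 to 89200 CPM in normal light Δlinda. In Col-0 these sums were 29300 to 33100 CPM in UV-C and 68500 to 77300 CPM in normal light. All 3 epidermis markers fell too, with sums of 118 to 166 CPM in UV-C Δlinda against 396 to 542 CPM in normal light Δlinda, and 124 to 156 CPM in UV-C Col-0 against 421 to 473 CPM in normal light Col-0. Of 6 stomatal lineage markers, 6 fell in Δlinda and 5 in Col-0, and of 6 vascular markers 2 rose and 1 fell in either genotype. The root markers PLT1, PLT2, EXPA7 and RHD6 were at 0 in normal light and had at most 1 count over a UV-C group. A fall in these could not be seen. Of all 10 root markers, 2 fell and 0 rose in Δlinda by edgeR, and 3 fell and 1 rose in Col-0. Among them SCR, a root patterning factor, was at 15.3 ± 2.55 CPM in UV-C Δlinda against 34.3 ± 2.16 CPM in normal light Δlinda, and at 18.6 ± 2.18 CPM in UV-C Col-0 against 33.1 ± 3.55 CPM in normal light Col-0 (SD, n = 4 each), without overlap. The root marker that rose in Col-0 was WOX5, at 0.821 ± 0.335 CPM after UV-C and 0.262 ± 0.203 CPM in normal light (SD, n = 4 each), with overlap. Root marker sums, of which the abundant PYK10 made up most, were 135 to 238 CPM in UV-C Δlinda against 189 to 251 CPM in normal light Δlinda, and 115 to 212 CPM in UV-C Col-0 against 136 to 187 CPM in normal light Col-0. None of the mesophyll or epidermis markers with a clear count was at 0 throughout a group, and the part of cell make-up in the SAUR result was not tested.

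**Figure D1:**
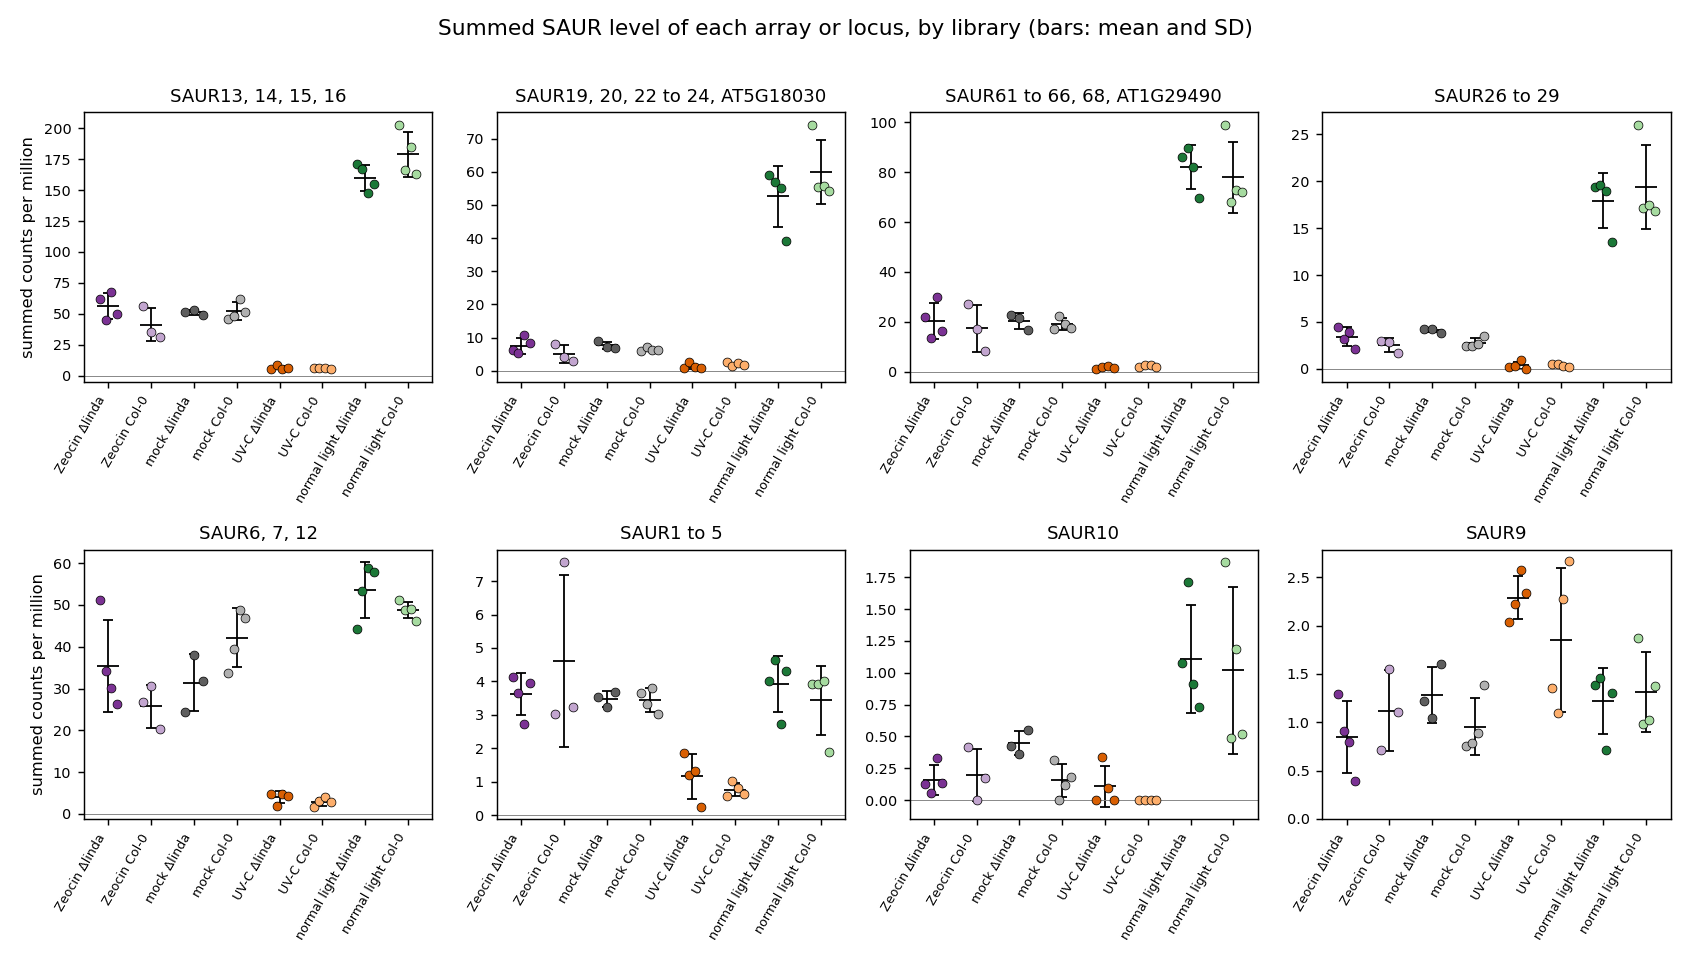
Summed level of each SAUR array or single locus (CPM, linear axes that differ between panels) in every library of the 8 groups; points are libraries and bars are the mean and SD of a group. The UV-C libraries of the SAUR14, SAUR19, SAUR26 and SAUR61 arrays lie below all others, while SAUR9 does not show this gap.

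The SAUR14 array holds SAUR15, known as SAUR-AC1, an early-described auxin-induced transcript, and SAUR16, known to be induced by light in cotyledons. SAUR16 was at 2.81, 2.90, 2.76 and 2.92 CPM in UV-C Δlinda, against 88.4, 90.9, 76.5 and 88.9 CPM in normal light Δlinda. In Col-0 it was at 2.02, 1.93, 3.35 and 2.84 CPM after UV-C, against 104.0, 103.0, 109.0 and 93.6 CPM in normal light. No UV-C library came near an unirradiated one, and the fitted difference was 30.3-fold in Δlinda (log2 -4.92 ± 0.24 SE, adjusted p = 1e-16) and 40.2-fold in Col-0 (log2 -5.33 ± 0.25, adjusted p = 2.8e-17). SAUR14 stood at 2.47, 5.20, 2.67 and 2.84 CPM in UV-C Δlinda, against 73.1, 70.3, 63.8 and 59.0 CPM in normal light Δlinda. It stood at 3.56, 3.21, 2.36 and 2.31 CPM in UV-C Col-0, against 87.7, 59.2, 68.3 and 64.0 CPM in normal light Col-0. SAUR14 was thus 20.1-fold lower in Δlinda and 24.4-fold lower in Col-0, and its groups did not overlap. SAUR15 changed by -4.57 ± 0.50 on the log2 scale in Δlinda (adjusted p = 2.2e-09) and by -4.06 ± 0.48 in Col-0 (adjusted p = 9.2e-09). SAUR13 was too low to be tested, with 0 counts in all 8 UV-C libraries, against 11 counts in normal light Δlinda and 9 in normal light Col-0. It overlaps a neighbouring gene, AT4G38820.

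The SAUR19 array encodes proteins known to promote cell expansion when overproduced. Its summed level was 1.28 ± 0.862 CPM in UV-C Δlinda, against 52.6 ± 9.13 CPM in normal light Δlinda, and 2.03 ± 0.432 CPM in UV-C Col-0, against 59.9 ± 9.57 CPM in normal light Col-0 (SD, n = 4 each). SAUR20 had 1, 0, 1 and 1 counts in UV-C Δlinda, against 122, 222, 160 and 152 counts in normal light Δlinda. In UV-C Col-0 it had 0, 1, 5 and 7 counts, against 211, 185, 221 and 182.977 in normal light Col-0. The SAUR20 groups were far apart in either genotype. The ratio of normal light to UV-C in Δlinda was 245, with an exact 95% interval of 83.6 to 1190 that covers counting error only, and the log2 change in Col-0 was -5.89 ± 0.37 (adjusted p = 1.2e-14). AT5G18030 changed by -5.42 ± 0.54 and SAUR24 by -5.27 ± 0.47 on the log2 scale in Δlinda, with Col-0 changes of -5.24 ± 0.52 and -4.36 ± 0.42. SAUR23 changed by -3.38 ± 0.50 in Δlinda and -3.77 ± 0.51 in Col-0. SAUR22 had a normal light to UV-C ratio of 58.9 in Δlinda (interval 15.9 to 493) and changed by -4.56 ± 0.82 on the log2 scale in Col-0. SAUR19 itself was too low for the filter, with ratios of 24.1 (6.29 to 206) in Δlinda and 11.2 (3.51 to 56.9) in Col-0. Tandem copies as alike as these can share reads, so the split between them is uncertain.

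The SAUR61 array, of which SAUR63 is known to promote hypocotyl and stamen filament growth, summed to 1.66 ± 0.669 CPM in UV-C Δlinda and 81.9 ± 8.79 CPM in normal light Δlinda (SD, n = 4 each). In Col-0 the sums were 2.41 ± 0.486 CPM after UV-C and 78.0 ± 14.2 CPM in normal light (SD, n = 4 each). SAUR62 was at 0.255, 0.682, 0.476 and 0.584 CPM in UV-C Δlinda, against 18.4, 21.7, 20.9 and 19.8 CPM in normal light Δlinda. That gene fell 39.7-fold in Δlinda and 45.3-fold in Col-0, with no overlap of its groups. SAUR64 and SAUR65 had log2 changes of -6.90 ± 0.67 and -6.37 ± 0.50 in Δlinda, and of -5.42 ± 0.57 and -5.32 ± 0.43 in Col-0. SAUR68 changed by -5.86 ± 0.50 and SAUR66 by -5.55 ± 0.52 in Δlinda, and by -4.58 ± 0.45 and -4.52 ± 0.48 in Col-0. The change of SAUR63 was -4.96 ± 0.39 in Δlinda and -4.95 ± 0.40 in Col-0. SAUR61 had a normal light to UV-C ratio of 60.6 in Δlinda (interval 10.4 to 2440) and a log2 change of -2.86 ± 0.66 in Col-0. AT1G29490 was untested, with 0 counts in all 8 UV-C libraries, against 6 counts in normal light Δlinda and 7 in normal light Col-0. The estimates of SAUR63 and SAUR68 summed to a whole number within 0.002 in 30 of 30 libraries, and in 24 of these both had decimals, so reads were shared between this pair. SAUR61, SAUR63 and SAUR64 also overlap other annotated genes.

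The SAUR26 array, known from growth at warm temperature, was at 0.366 ± 0.415 CPM in UV-C Δlinda, against 17.9 ± 2.92 CPM in normal light Δlinda, and at 0.393 ± 0.163 CPM in UV-C Col-0, against 19.4 ± 4.47 CPM in normal light Col-0 (SD, n = 4 each). SAUR29 had 0, 0, 1 and 0 counts in UV-C Δlinda, against 52, 101, 95 and 69 counts in normal light Δlinda. Its ratio of normal light to UV-C was 356, with an exact interval of 63.4 to 14100, and its log2 change in Col-0 was -5.95 ± 0.46. SAUR27 had ratios of 87.5 (23.8 to 729) in Δlinda and 82.3 (22.4 to 685) in Col-0. SAUR28 had a ratio of 26.9 (7.06 to 229) in Δlinda and was at least 6.07-fold lower in Col-0, where all UV-C libraries had 0 counts and the bound sets each at 3 counts. SAUR26 fell, with changes of -4.29 ± 0.55 in Δlinda and -4.47 ± 0.56 in Col-0 on the log2 scale.

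The SAUR6 array changed by -3.76 ± 0.24 in Δlinda and -4.04 ± 0.25 in Col-0 on the log2 scale, and the SAUR1 array by -1.76 ± 0.36 in Δlinda and -2.17 ± 0.38 in Col-0. SAUR6 was at 4.42, 1.36, 3.90 and 3.42 CPM in UV-C Δlinda, against 43.5, 52.2, 56.3 and 55.3 CPM in normal light Δlinda. It was at 1.63, 2.48, 3.99 and 2.22 CPM in UV-C Col-0, against 50.1, 47.5, 48.0 and 44.4 CPM in normal light Col-0. These values place SAUR6 15.9-fold lower in Δlinda and 18.3-fold lower in Col-0. SAUR7, which overlaps SAUR6, fell, with changes of -3.02 ± 0.64 in Δlinda and -3.10 ± 0.70 in Col-0 on the log2 scale. SAUR3 had 0 counts in all 8 UV-C libraries, against 16, 18, 10 and 21 counts in normal light Δlinda and 11, 19, 27 and 9 in normal light Col-0. At the bound of 3 counts a library it was at least 6.35-fold lower in Δlinda and at least 5.42-fold lower in Col-0. SAUR10, known to promote cell expansion, changed by -3.25 ± 0.81 in Δlinda and was at least 3.70-fold lower in Col-0, where it had 0 counts after UV-C. SAUR1 changed by -1.93 ± 0.68 in Δlinda (adjusted p = 0.014) and by -3.84 ± 0.87 in Col-0 (adjusted p = 2.6e-04). The SAUR1 call in Δlinda was lost without normal light Δlinda replicate 2 (log2 -1.66, adjusted p = 0.053).

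**Figure D2:**
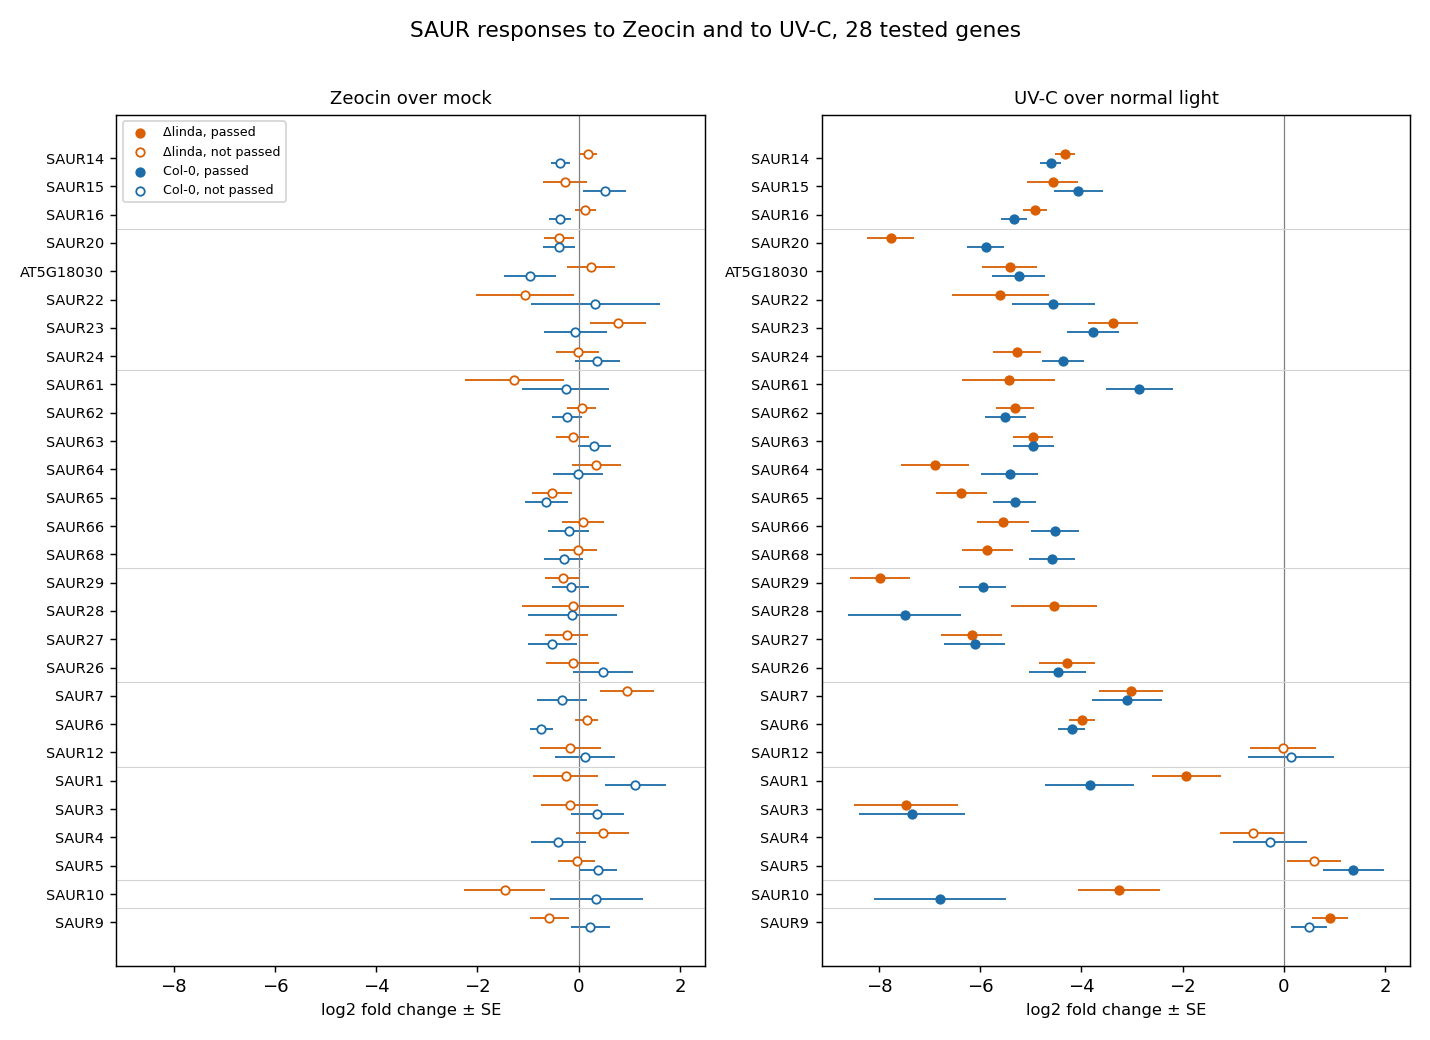
Log2 fold change of each tested SAUR gene, with its standard error, after UV-C against normal light and after Zeocin against mock, in Δlinda and Col-0. The UV-C changes spread down to -7.98, where UV-C counts are near 0 and a fitted value is no bound, while all Zeocin changes lie between -1.46 and 1.12.

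Only 4 of the 28 tested genes, SAUR4, SAUR5, SAUR9 and SAUR12, were not called lower after UV-C in either genotype. SAUR9, whose protein is known to inhibit PP2C clade D phosphatases, was at 2.04, 2.22, 2.57 and 2.34 CPM in UV-C Δlinda, against 1.39, 1.46, 0.708 and 1.30 CPM in normal light Δlinda. All 4 UV-C libraries lay above the unirradiated ones, and SAUR9 rose 1.88-fold (log2 0.91 ± 0.35, adjusted p = 0.023). In Col-0 its values of 1.35, 1.10, 2.27 and 2.67 CPM after UV-C overlapped the 1.87, 0.983, 1.02 and 1.38 CPM in normal light (log2 0.49 ± 0.35, adjusted p = 0.22). The Δlinda call of SAUR9 was lost without normal light Δlinda replicate 3 (0.75, adjusted p = 0.073) or UV-C Δlinda replicate 3 (0.85, adjusted p = 0.050). SAUR5 rose in Col-0 (1.37 ± 0.60, adjusted p = 0.042) on 16 counts in UV-C against 6 in normal light, with overlapping groups. That call was lost under DESeq2 (1.48, adjusted p = 0.066) and without any of 6 of the 8 libraries. Those were normal light Col-0 replicates 1, 3 and 4 (adjusted p = 0.091, 0.10 and 0.10) and UV-C Col-0 replicates 2, 3 and 4 (0.061, 0.061 and 0.088). In Δlinda SAUR5 had a log2 change of 0.59 ± 0.54 (adjusted p = 0.35). SAUR4 and SAUR12 had changes of -0.62 ± 0.64 and -0.02 ± 0.65 in Δlinda, and of -0.28 ± 0.73 and 0.13 ± 0.85 in Col-0, at few counts. SAUR2 could not be tested, with 1 count in all, in mock Col-0 replicate 3.

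**Figure D3:**
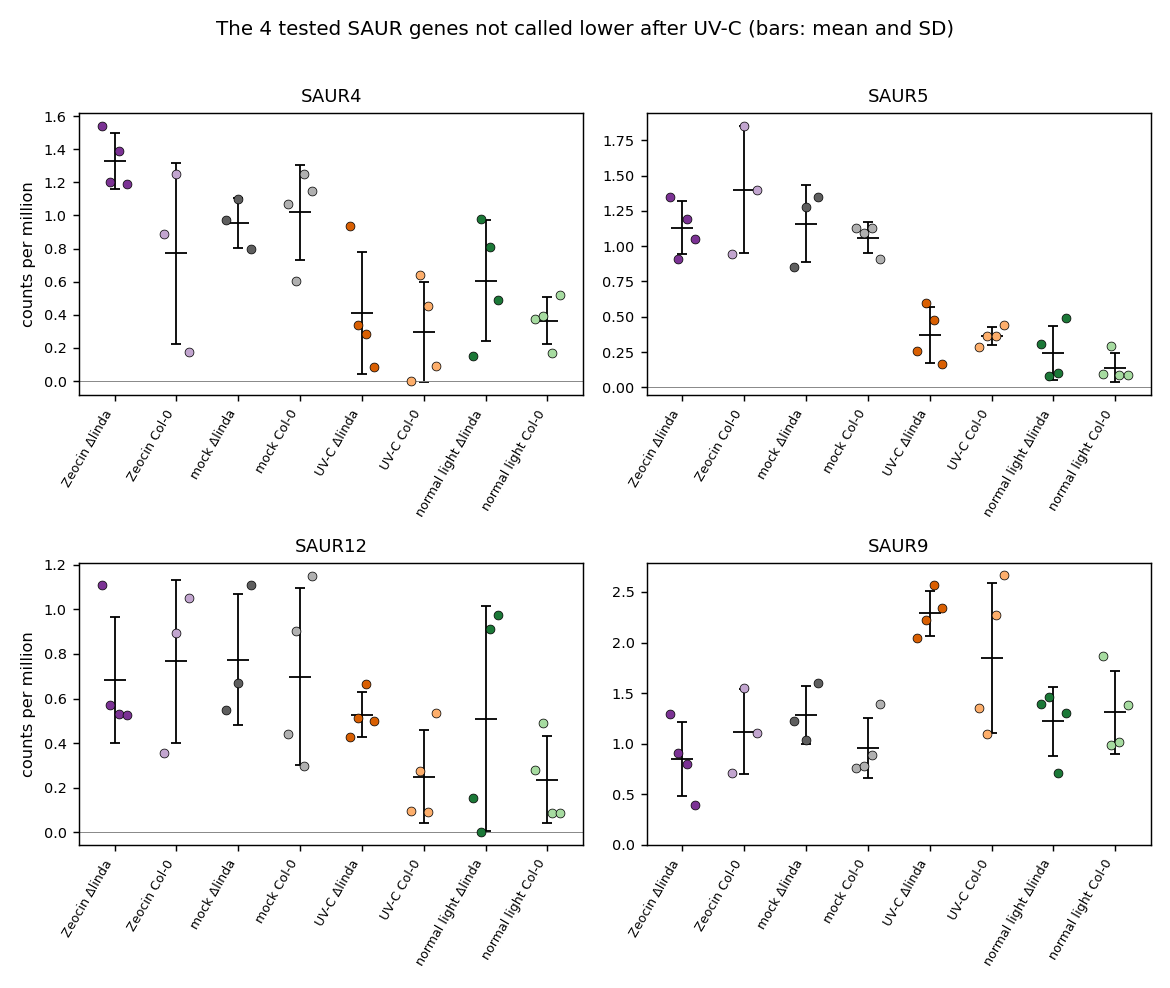
Level of SAUR4, SAUR5, SAUR9 and SAUR12 (CPM) in each library of the 8 groups. The SAUR9 values of UV-C Δlinda, 2.04 to 2.57 CPM, lie above the 0.708 to 1.46 CPM of normal light Δlinda, and SAUR5 in mock and Zeocin libraries lies above its normal light values.

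No SAUR gene passed the edgeR test after Zeocin in either genotype. The 32 genes summed to 128 ± 24.3 CPM in Zeocin Δlinda (SD, n = 4), against 120.0 ± 8.02 CPM in mock Δlinda (SD, n = 3), and to 97.7 ± 28.1 CPM in Zeocin Col-0 (SD, n = 3), against 127 ± 14.3 CPM in mock Col-0 (SD, n = 4). With edgeR, 0 of 28 genes passed in Δlinda, where 2.89% of all genes were called, and 0 of 28 in Col-0, where 5.35% were called. At an unadjusted p under 0.05 there were 0 SAUR genes in Δlinda and 1 in Col-0, with no share of all genes given. DESeq2 called 0 in Δlinda and 1 in Col-0, again with no share of all genes given. That gene was SAUR6. It stood at 48.4, 32.3, 28.9 and 24.8 CPM in Zeocin Δlinda, against 23.1, 36.9 and 30.2 CPM in mock Δlinda, with overlapping groups. In Col-0 it stood at 25.2, 28.7 and 18.3 CPM after Zeocin, against 31.9, 37.5, 47.7 and 43.9 CPM in mock, without overlap. The Col-0 change of SAUR6 was -0.74 ± 0.23 with an adjusted p of 0.059 in edgeR, and -0.75 with an adjusted p of 0.029 in DESeq2. Without mock Col-0 replicate 1, the library with the conflicting genotype label, it was -0.84 (adjusted p = 0.048). SAUR16 was at 27.7, 13.5 and 11.2 CPM in Zeocin Col-0, against 19.5, 18.7, 31.3 and 20.6 CPM in mock Col-0. Its groups overlapped, with a change of -0.37 ± 0.21 (adjusted p = 0.42). Without Zeocin Col-0 replicate 1, on which the labels cast no doubt, that change was -0.87 (adjusted p = 0.0025). That run kept only the libraries at 13.5 and 11.2 CPM in Zeocin Col-0. The smallest adjusted p in Δlinda was 0.50, for SAUR10 at -1.46 ± 0.80.

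The difference between the responses was tested directly, as the Zeocin change minus the UV-C change, each against its own control. These controls were not alike, as the summed SAUR level in mock was 32.3% of that in normal light in Δlinda and 32.5% in Col-0. The Zeocin change thus started from a lower SAUR level, and the part of the controls in the difference was not tested. In Δlinda 22 of 28 SAUR genes had a higher change after Zeocin and 1, SAUR9, a lower one (-1.49 ± 0.51, adjusted p = 0.015), beside 27.1% higher and 27.3% lower over all genes. In Col-0 23 of 28 were higher and 0 lower, beside 28.1% higher and 27.8% lower. The median difference of the SAUR genes was 4.53 in Δlinda and 4.71 in Col-0 on the log2 scale. SAUR14 differed by 4.51 ± 0.27 in Δlinda (adjusted p = 3.9e-14) and by 4.25 ± 0.27 in Col-0 (adjusted p = 1.2e-13). SAUR16 differed by 5.05 ± 0.32 in Δlinda and by 4.96 ± 0.32 in Col-0. Calls at low counts rested on single libraries. In Δlinda SAUR28 was lost without Zeocin Δlinda replicate 1 (3.43, adjusted p = 0.13), SAUR22 without Zeocin Δlinda replicate 4 (3.82, adjusted p = 0.087) and SAUR9 without mock Δlinda replicate 3 (-1.30, adjusted p = 0.053). In Col-0 SAUR22 was lost without Zeocin Col-0 replicate 1 (4.23, adjusted p = 0.14) or replicate 3 (4.76, adjusted p = 0.057). SAUR61 passed in Δlinda (adjusted p = 0.034) but not without UV-C Δlinda replicate 1, 2 or 4, mock Δlinda replicate 2 or Zeocin Δlinda replicate 2, 3 or 4 (adjusted p = 0.055 to 0.12). In Col-0 SAUR61 missed the threshold (2.60 ± 1.17, adjusted p = 0.059), but passed under DESeq2 (0.038) and without UV-C Col-0 replicate 3, normal light Col-0 replicate 4, mock Col-0 replicate 4 or Zeocin Col-0 replicate 1 or 2 (adjusted p = 0.020 to 0.047).

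No SAUR gene passed the test between the genotypes. With edgeR and with DESeq2, 0 SAUR genes passed between Δlinda and Col-0 in Zeocin, mock, UV-C or normal light, where edgeR called 0.166%, 0.00951%, 0.019% and 0.186% of all genes. At an unadjusted p under 0.05 there were 4, 2, 2 and 0 SAUR genes. The share of all genes at that threshold is not given here, so these counts are not read as particular to SAUR genes. After Zeocin the smallest adjusted p was 0.25, for SAUR16 at 25.8 ± 5.55 CPM in Δlinda (SD, n = 4) and 17.5 ± 8.96 CPM in Col-0 (SD, n = 3), a log2 difference of 0.56 ± 0.21. Without Zeocin Col-0 replicate 1 that difference was 1.06 (adjusted p = 0.0030), with only replicates 2 and 3 left in Zeocin Col-0. After UV-C, SAUR20 had 3 counts over the Δlinda libraries and 13 over the Col-0 libraries, a Col-0 to Δlinda ratio of 4.57 with an exact interval of 1.26 to 25.0 for counting error only. Its groups overlapped, and its adjusted p was 0.66. In normal light SAUR16 was lower in every Δlinda library than in any Col-0 library, with a difference of -0.25 ± 0.19 (adjusted p = 0.75). Tests of whether the genotypes responded differently also gave 0 SAUR genes in edgeR and DESeq2, for Zeocin and for UV-C, where edgeR called 0.0238% of all genes in each. At an unadjusted p under 0.05 there were 2 SAUR genes for Zeocin, SAUR6 (0.90 ± 0.33) and SAUR14 (0.54 ± 0.25), and 1 for UV-C, SAUR20 (-1.89 ± 0.86). Here too no share of all genes at that threshold is given.

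The control groups differed widely in the same genes. The summed level of the 32 genes was 120.0 ± 8.02 CPM in mock Δlinda (n = 3), or 32.3% of that in normal light Δlinda, and 127 ± 14.3 CPM in mock Col-0 (n = 4), or 32.5% of that in normal light Col-0. In Δlinda 21 of 28 SAUR genes were lower in mock and 1 higher, beside 22.4% lower and 24.7% higher over all genes. In Col-0 21 were lower and 2 higher, beside 26.5% and 28.9%. Of these, 20 were lower in both genotypes, and each of the 21 was also among the 24 that fell after UV-C, in comparisons that share the normal light libraries. As with UV-C, a gene that passed the filter on low counts through normal light alone could hardly be called other than lower. The experiment and the liquid medium cannot be told apart here. Root markers moved with it, with 9 of 10 higher in mock in either genotype and sums of 2300 to 2450 CPM in mock Δlinda against 189 to 251 CPM in normal light Δlinda. In Col-0 the root sums were 2100 to 2270 CPM in mock and 136 to 187 CPM in normal light. The mesophyll markers fell, 7 of 7, to sums of 27900 to 33900 CPM in mock Δlinda and 26000 to 31600 CPM in mock Col-0. Of 6 stomatal lineage markers, 4 were lower in Δlinda and 3 in Col-0, with sums of 51.8 to 53.9 CPM in mock Δlinda against 107 to 121 CPM in normal light Δlinda, and of 47.2 to 61.1 CPM in mock Col-0 against 100 to 103 CPM in normal light Col-0. Of 6 vascular markers, 2 were higher and 2 lower in Δlinda, and 3 higher and 2 lower in Col-0, with sums of 168 to 175 CPM in mock Δlinda against 219 to 251 CPM in normal light Δlinda. In Col-0 the vascular sums were 162 to 196 CPM in mock and 229 to 301 CPM in normal light. Of 3 epidermis markers, 1 was lower in either genotype, and their sums overlapped, at 391 to 434 CPM in mock Δlinda against 396 to 542 CPM in normal light Δlinda and 382 to 548 CPM in mock Col-0 against 421 to 473 CPM in normal light Col-0. No stomatal, vascular or epidermis marker was at 0 throughout a group. The part of tissue make-up in the SAUR difference was not tested. TMM factors were 0.772 to 0.893 in normal light and 1.117 to 1.211 in mock and Zeocin libraries. Scaled by library totals alone, which shifted the median of all genes to 0.50 in Δlinda and 0.57 in Col-0, 19 SAUR genes were lower in Δlinda and 20 in Col-0. The share of all genes called lower under that scaling is not given here, so these counts are not read as particular to SAUR genes.

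**Figure D4:**
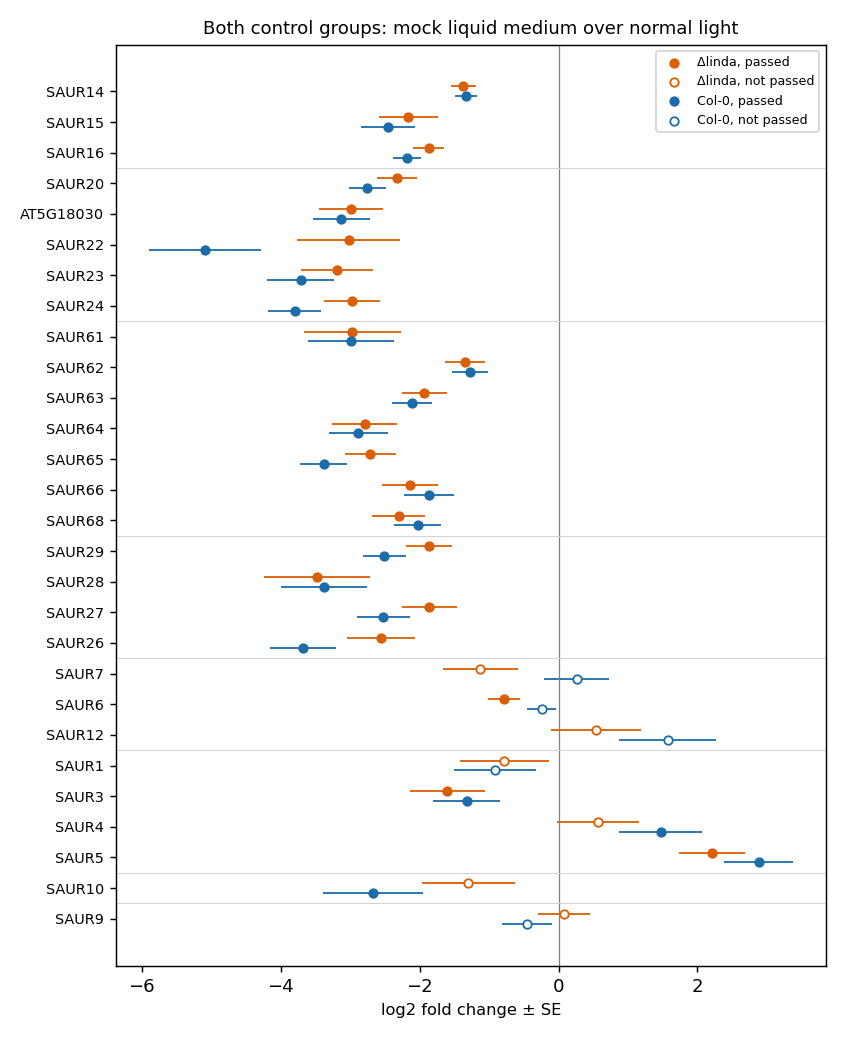
Log2 fold change of each tested SAUR gene, with its standard error, in mock against normal light, in Δlinda and Col-0. SAUR5 lies above 0 in either genotype and the SAUR19 array reaches the lowest values, down to -5.09 for SAUR22 in Col-0. SAUR22 had 0 counts in 2 of the 7 mock libraries.

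Among the single genes, SAUR24 was at 1.76, 0.914 and 1.60 CPM in mock Δlinda, against 12.5, 10.7, 13.6 and 8.30 CPM in normal light Δlinda. In Col-0 it was at 0.946, 0.422, 0.655 and 1.51 CPM in mock, against 17.2, 9.14, 12.5 and 10.7 CPM in normal light. The groups were separate, and SAUR24 was lower by 7.84-fold in Δlinda and 13.9-fold in Col-0. SAUR16 was lower by 3.66-fold in Δlinda (log2 -1.87 ± 0.22, adjusted p = 2.6e-08) and 4.53-fold in Col-0 (log2 -2.18 ± 0.20, adjusted p = 1.6e-10). SAUR14 and SAUR62 were lower by 2.58-fold and 2.55-fold in Δlinda, and by 2.51-fold and 2.43-fold in Col-0. Over the called genes, the lower values ran from -3.48 to -0.79 in Δlinda and from -5.09 to -1.28 in Col-0. SAUR5 was the one gene higher in both genotypes, with 14, 21 and 22 counts in mock Δlinda against 2, 1, 1 and 6 in normal light Δlinda, and 18, 18, 19 and 15 in mock Col-0 against 1, 3, 1 and 1 in normal light Col-0. Its groups did not overlap, and it rose by 2.21 ± 0.48 in Δlinda and 2.88 ± 0.50 in Col-0 on the log2 scale. SAUR4 was higher in Col-0 (1.47 ± 0.60, adjusted p = 0.038) and had a change of 0.57 in Δlinda (adjusted p = 0.45). That call was lost without both doubted libraries (1.44, adjusted p = 0.056) and without mock Col-0 replicate 1, 3 or 4 or normal light Col-0 replicate 1, 2 or 3. SAUR6 was lower in Δlinda (-0.79 ± 0.23, adjusted p = 0.006), a call lost without mock Δlinda replicate 1 (-0.63, adjusted p = 0.051), and had a change of -0.24 ± 0.21 in Col-0 (adjusted p = 0.35). SAUR3 was lower in both genotypes (-1.60 ± 0.54 in Δlinda, -1.32 ± 0.48 in Col-0). Its call was lost in Δlinda without mock replicate 2 (-1.40, adjusted p = 0.074) or normal light replicate 1 (-1.39, adjusted p = 0.050), and in Col-0 without mock replicate 3 or 4 or normal light replicate 2 or 3.

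Other SAUR family genes were called at shares near those of all genes after UV-C. Of 31 tested, 12 rose and 11 fell in Δlinda, beside 35.3% and 33.3% of all genes, and 11 rose and 12 fell in Col-0, beside 35% and 33.9%. Their median changes were -0.37 in Δlinda and -0.47 in Col-0. SAUR50, known to be induced by light in cotyledons, fell, with changes of -4.20 ± 0.26 in Δlinda and -5.04 ± 0.28 in Col-0 on the log2 scale. SAUR56 fell as well, at -2.38 ± 0.63 in Δlinda with overlapping groups and -3.03 ± 0.63 in Col-0. SAUR48 rose, with a UV-C to normal light ratio of 116 in Δlinda (interval 20.4 to 4610) and 65.4 in Col-0 (17.7 to 546). SAUR55 rose too, with a ratio of 28.1 (7.45 to 237) in Δlinda and a log2 change of 2.56 ± 0.55 in Col-0. After Zeocin 0 of 31 were called in Δlinda by edgeR, beside 2.89% of all genes, and 4 of 31 in Col-0, beside 5.35%. In Col-0, SAUR77 (1.61 ± 0.48, adjusted p = 0.043) and SAUR71 (1.30 ± 0.37, adjusted p = 0.035) rose, and SAUR50 (-0.86 ± 0.22, adjusted p = 0.013) and SAUR32 (-0.67 ± 0.17, adjusted p = 0.018) fell. In mock against normal light, 11 rose and 3 fell in Δlinda, beside 24.7% and 22.4% of all genes, and 13 rose and 5 fell in Col-0, beside 28.9% and 26.5%. SAUR55 had a mock to normal light ratio of 199 (54.9 to 1650) in Δlinda and a log2 change of 5.71 ± 0.41 in Col-0.

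Genes that make auxin or carry its signal to SAUR genes were lower in part after UV-C. The counts of each list stand beside 33.3% of all genes that fell and 35.3% that rose in Δlinda, and 33.9% and 35% in Col-0. Of 9 tested auxin synthesis genes, 6 fell in Δlinda and 5 in Col-0 and none rose. YUC2, which encodes a flavin monooxygenase of auxin synthesis, changed by -2.58 ± 0.33 in Δlinda and by -3.20 ± 0.35 in Col-0. YUC8, of the same enzyme family, changed by -2.50 ± 0.55 in Δlinda and by -2.71 ± 0.52 in Col-0, and YUC5 fell in Δlinda on 2 counts against 20 in overlapping groups. Of 6 receptor genes, 4 fell in each genotype, with 2 rising in Δlinda and 1 in Col-0. TIR1, an auxin receptor, fell, with changes of -1.93 ± 0.11 in Δlinda and -2.18 ± 0.11 in Col-0. GRH1, also called AFB1 and a relative of TIR1, changed by -1.83 ± 0.15 in Δlinda and -2.09 ± 0.15 in Col-0. Of 5 activating auxin response factors, which bind auxin-responsive promoters, 3 fell and 1 rose in either genotype, with ARF19 at -2.01 ± 0.22 in Δlinda and -1.82 ± 0.21 in Col-0. ARF8 changed by -1.27 ± 0.16 in Δlinda and -0.96 ± 0.16 in Col-0. Of 15 Aux/IAA and GH3 genes, which repress the response or inactivate auxin, 9 fell and 3 rose in either genotype. Within that list IAA14 changed by -2.99 ± 0.26 in Δlinda and -3.07 ± 0.26 in Col-0. IAA29 had a change of -3.99 ± 0.68 in Δlinda and a normal light to UV-C ratio of 26.3 in Col-0 (interval 8.68 to 130). Of 17 growth regulators, 15 fell in Δlinda and 13 in Col-0 and none rose. The list held PIF, BZR and bHLH factors, which act upstream of several SAUR genes. It also held HY5, a bZIP factor, and RGA1 and GAI, of the GRAS family. RGA1 and GAI fell in both genotypes and HY5 in Δlinda. HFR1, an atypical bHLH protein that holds back PIF factors, fell, with changes of -4.32 ± 0.48 in Δlinda and -5.09 ± 0.49 in Col-0. PRE1, a small bHLH protein that promotes elongation, changed by -4.58 ± 0.56 in Δlinda and by -4.0 ± 0.53 in Col-0. HBI1, another growth-promoting bHLH factor, changed by -4.0 ± 0.16 in Δlinda and by -4.27 ± 0.17 in Col-0. In mock against normal light, 10 of these 17 were lower and 2 higher in Δlinda, and 11 lower and 1 higher in Col-0. Over all genes, 22.4% were lower and 24.7% higher in Δlinda, and 26.5% and 28.9% in Col-0. The gene higher in Col-0 was HY5, at 2.45 ± 0.2 on the log2 scale. PRE1 was at -3.54 ± 0.54 in Δlinda and -3.48 ± 0.48 in Col-0.

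Of 9 PP2C clade D genes, whose phosphatases SAUR proteins inhibit, 5 rose and 3 fell after UV-C in Δlinda, and 4 rose and 2 fell in Col-0. Over all genes 35.3% rose and 33.3% fell in Δlinda, and 35% rose and 33.9% fell in Col-0, so these counts are not read as particular to the phosphatases. The phosphatase gene AT5G02760 fell, with changes of -3.70 ± 0.31 in Δlinda and -4.09 ± 0.31 in Col-0, and AT4G33920 rose by 2.33 ± 0.13 in Δlinda and by 2.23 ± 0.13 in Col-0. Of 9 tested proton pump genes, 6 fell in Δlinda and 4 in Col-0 and none rose, beside the same shares. HA11, encoding one such pump, changed by -1.30 ± 0.16 in Δlinda and by -0.52 ± 0.16 in Col-0, where its groups overlapped, and HA2, another, by -0.89 ± 0.18 in Δlinda and -0.47 ± 0.18 in Col-0. In mock against normal light HA7 was higher by 3.71 ± 0.47 in Δlinda and by 3.92 ± 0.48 in Col-0. Other pump genes went either way. HA2 was at 529 ± 95.5 CPM in mock Δlinda (SD, n = 3) against 155 ± 30.3 CPM in normal light Δlinda (SD, n = 4). HA5 was at 11.4 ± 2.45 CPM against 17.0 ± 1.84 CPM in the same groups. No count over the list or share of all genes is given for this comparison, in which root markers were higher too.

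After Zeocin, 3 of 15 Aux/IAA and GH3 genes rose in each genotype, where 515 of 21024 genes rose in Δlinda and 865 in Col-0. IAA5, an auxin-induced repressor, rose by 3.53 ± 0.55 in Δlinda (adjusted p = 4.8e-05) and by 3.59 ± 0.54 in Col-0 (adjusted p = 1.9e-05). IAA29, another such repressor, rose by 2.27 ± 0.57 in Δlinda (adjusted p = 0.018) and by 2.90 ± 0.54 in Col-0 (adjusted p = 5.2e-04). The third was IAA19, at 1.04 ± 0.26 in Δlinda, with overlapping groups, and 0.85 ± 0.25 in Col-0. Of the 17 growth regulators, PIF3 fell in Δlinda (-1.19 ± 0.26, adjusted p = 0.0055, overlapping groups) and edgeR called none in Col-0. No SAUR gene of the 28 tested passed the edgeR test in the same comparisons.

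**Figure D5:**
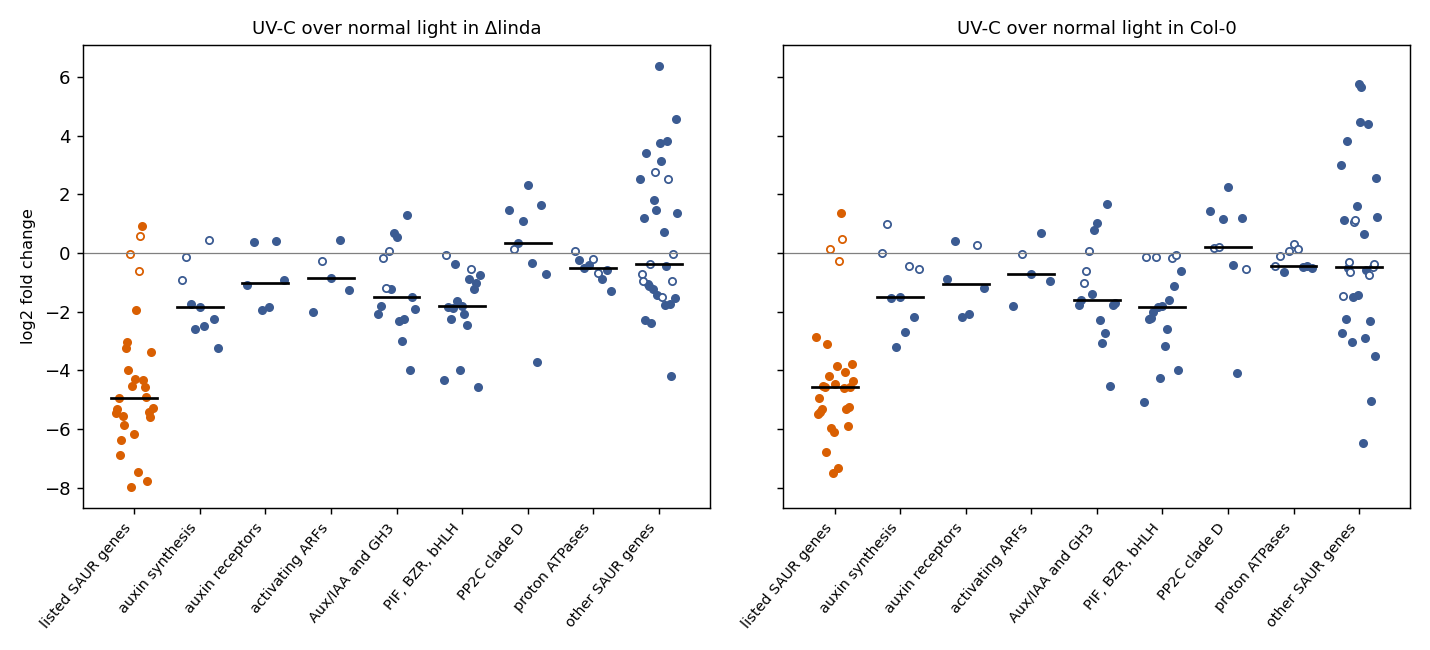
Log2 fold change after UV-C against normal light of every tested gene in the auxin pathway lists beside the 28 tested SAUR genes, in Δlinda and Col-0; points are genes, filled where the test was passed, and lines are list medians. The SAUR medians are -4.94 and -4.57, and the other lists have medians between -1.85 and 0.34.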

How the data were processed

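Gene-level estimated counts from whole-seedling RNA were deposited by the authors for 30 libraries; per the submitters' processing notes, Trimmomatic 0.38.0, FastQC 0.72 and Salmon 0.14.1.2 were used. The transcript set, genome build and strand setting are not given in the sources used here. Non-whole estimates had lost their decimal mark. Its place was restored from each gene's other libraries by a probability model, which gave decimals to 14.6% of entries above 0. Genes without a clear placement (3369) were left out, and held 13.8 to 21.9% of counts in UV-C libraries and 5.62 to 10.6% elsewhere. All 32 SAUR genes were clear (lowest probability 0.96), and 67 of 960 SAUR entries were given decimals. Restoration used the groups, and was repeated without them.

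Values were rounded and tested with edgeR 4.0.16 (limma 3.58.1, R 4.3.3): TMM scaling, filterByExpr with a count minimum of 10 and a total minimum of 15, 1 quasi-likelihood fit over all 8 groups, and Benjamini-Hochberg adjustment over 21024 genes at 0.05. The SE is the log2 change over the root of F. Arrays were tested as summed counts. DESeq2 1.42.0, other scalings and filters, a replicate block, fits within 1 experiment and leaving out libraries were alternatives. The steps were run on simulated data built from genes with a clear placement. Unclear genes and genes with few counts throughout were not covered, and the outcome is not given here. Replicates of a group differed beyond sampling noise in all 42 pairs (chi-square per degree of freedom 3.86 to 37.9). Intervals cover counting error only. A group of 0 counts was given a floor of 3 counts per library.

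The SAUR genes and all gene lists were chosen with earlier results of these data known. All SAUR genes are accounted for; of each other list up to 2 genes with the largest change past the threshold in a genotype were named, and of other SAUR genes up to 2 each way. Gene names came from RefSeq. AT5G01830 carries a SAUR symbol but another product, and was left out. No coordinates or sequences are given, since the build of the table is not stated.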

Additional observations from a re-analysis of the deposited data

Results flagged for a closer look

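In groups of 4 libraries, 27 of 217 checks found 1 library set apart from the others of its group (gap over range above Dixon's limit). For continuous values chance flags about 1 in 20 groups, or 10.9 of these checks. That rate does not hold at few counts, where 1 count beside 0 in the others is always flagged. Arrays were also checked beside their own members, so the 27 are not read as an excess. No SAUR gene or array passed the test of a differing response between genotypes. All values here are in CPM, and those after UV-C rest on few counts. In Zeocin Δlinda, SAUR1 was low in replicate 3 at 0.0663 (others 0.855 to 0.988), and SAUR68 was high in that library at 5.22 (1.48 to 1.99). SAUR12 was high in Zeocin Δlinda replicate 1 at 1.11 (0.527 to 0.570).

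In mock Col-0, SAUR16 was high in replicate 3 at 31.3 (others 18.7 to 20.6) and SAUR26 in replicate 1 at 0.567 (0.298 to 0.302). Replicate 4 was high in SAUR65 at 1.69 (0.953 to 1.07) and in the SAUR26 array at 3.5 (2.46 to 2.62).

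In UV-C Δlinda, replicate 2 was high in SAUR14 at 5.2 (others 2.47 to 2.84), in the SAUR14 array at 8.61 (5.52 to 5.92) and in the SAUR19 array at 2.56 (0.751 to 1.05), and low in SAUR20 at 0.0 (0.0834 to 0.0952). Replicate 3 of that group was high in SAUR29 and in SAUR61 at 0.0952 each, where the others had 0, and in SAUR65 at 0.19 (0.0834 to 0.0852). Replicate 1 was high in SAUR22 at 0.17, where the others had 0, and in SAUR68 at 0.34 (0.167 to 0.192). In UV-C Col-0, SAUR27 was high in replicate 4 at 0.178, where the others had 0, and SAUR65 was low in replicate 1 at 0.0962 (0.356 to 0.367).

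Normal light Col-0 replicate 1 was high in 6 of the checks. It stood at 3.93 in SAUR22 (others 2.5 to 2.65), 11.1 in SAUR29 (8.35 to 8.52), 5.71 in SAUR27 (2.95 to 3.32), 74.2 in the SAUR19 array (54.2 to 55.6), 26.0 in the SAUR26 array (16.8 to 17.5) and 99.0 in the SAUR61 array (68.1 to 72.9). In the same group SAUR5 was high in replicate 2 at 0.295 (0.0852 to 0.0937), and the SAUR1 array was low in replicate 4 at 1.89 (3.93 to 4.0). In normal light Δlinda, the SAUR26 array was low in replicate 4 at 13.5 (18.9 to 19.6). Without normal light Col-0 replicate 1, 24 SAUR genes were called for UV-C in Col-0.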

How the results depend on the processing

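No SAUR gene or array reversed its called direction under any alternative run. DESeq2 called 1 SAUR gene and 1 array lower after Zeocin in Col-0, where edgeR called 0, and 1 array was called there with both doubted libraries left out, an alternative chosen after seeing the data. The shares of all genes called in these runs are not given. Leaving out 1 library at a time gave 0 to 1 genes and 0 to 1 arrays for Zeocin in Col-0, and 0 to 1 genes between Δlinda and Col-0 after Zeocin. It gave 24 to 25 genes for UV-C in either genotype, and 7 to 8 arrays in Δlinda and 7 in Col-0. These array counts take in the single loci SAUR9 and SAUR10 and calls in either direction, with SAUR9 called higher in Δlinda. For the Zeocin minus UV-C difference it gave 22 to 24 genes in Col-0 and 21 to 24 in Δlinda, and for mock against normal light 21 to 23 in either genotype. All other comparisons stayed at 0. In no comparison did every pair of same-numbered replicates correlate above 0.1 in its deviations, so numbers were not taken to pair samples. After UV-C these correlations ran between -0.0491 and 0.178 for Δlinda, and between 0.0274 and 0.106 for Col-0, and 3 of 4 pairs in each genotype matched their own number best. With the replicate number as a block, 24 genes were called for UV-C in Col-0 and 25 in Δlinda, and 0 for Zeocin. SAUR5 after UV-C in Col-0 was lost under the block (1.37, adjusted p = 0.051). Scaling by library totals alone moved the median of all genes in mock against normal light to 0.50 in Δlinda and 0.57 in Col-0, from 0.03. It left 19 SAUR genes lower in Δlinda and 20 in Col-0, while UV-C counts of 24 lower and 1 higher did not move. No share of all genes under that scaling is given. SAUR genes with few counts after UV-C are limited by depth, so their ratios span wide intervals, and SAUR2, SAUR13, SAUR19 and AT1G29490 could not be tested.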

Other observations

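Some genes that lie inside the SAUR arrays but belong to other families were chosen for this account after their values were seen. Of 8 tested, 2 rose and 3 fell after UV-C in Δlinda, and 3 rose and 3 fell in Col-0, beside 35.3% higher and 33.3% lower over all genes in Δlinda and 35% and 33.9% in Col-0, so the counts are not read as particular to these genes. DRT101 (AT5G18070), beside SAUR24, rose by 1.5 in Δlinda and 1.57 in Col-0 on the log2 scale, while SAUR24 changed by -5.27 in Δlinda and -4.36 in Col-0. AT1G29470, between SAUR65 and SAUR66, changed by -0.83 in Δlinda and -0.66 in Col-0. AT5G18040, within the SAUR19 array, had changes of 0.19 in Δlinda and -0.26 in Col-0 that did not pass the test.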
